A study of Mus musculus with 36 samples.

Results

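The genes described here are the mouse zinc-finger genes Zfp700 to Zfp999, those named Zfp plus a number and nothing else, measured in silenced cortical neurons that received BDNF or KCl. Of the genes with RNA values, 120 identifiers carried such a name, and the members were selected on their level: the 107 with a mean of at least 10 normalised counts over the 18 RNA libraries were kept. In all 16209 of 26709 listed genes reached that mean. The level threshold left 13 identifiers out. Just inside it stood Zfp951 with a mean of 11.6, Zfp984 with 14.8 and Zfp947 with 17.4, and just outside it Zfp980 with 8.11, 1 of the identifiers named Zfp976 with 6.97 and Zfp982 with 4.19. That Zfp976 identifier had a mean of 11.0 in the controls and missed the threshold through its lower levels after stimulation. All 107 members had a mean of at least 10 in the silenced controls as well, so none was kept only because it was high after a stimulus. The group was also chosen by a measured change, the fall of Zfp712, which was among the genes that fell most after 1 h of KCl. The values of all members in that comparison are therefore a description: calls are counted in it so that they can be set beside those of all genes, but no p-value of a member is given and nothing is read from the counts. The same holds for the comparisons of KCl 1 h with BDNF 1 h and with KCl 6 h, which use the same KCl libraries. The other comparisons with controls use the same control libraries as that fall. Their p-values for Zfp712 are therefore not independent of the choice.

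Primary cortical neurons from CD-1 mouse embryos at day 15 were kept for 7 days in vitro and silenced for 2 h with 100 µM AP-5, an NMDA receptor blocker, and 1 µM TTX, which blocks voltage-gated sodium channels. BDNF at 10 ng/ml, the ligand of the receptor TrkB, or KCl at 55 mM, which depolarises the membrane, was then added for 1, 6 or 10 h. Controls stayed in AP-5 and TTX alone for 3, 8 or 12 h in total and are called the 1, 6 and 10 h controls. All 9 groups held 2 RNA libraries (A and B) and 2 libraries of open chromatin made by ATAC-seq, and silencing was common to every group. The study describes A and B as biological replicates, and the labels do not add whether they came from separate cultures or days.

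RNA libraries held 8.51 to 36.7 M reads in genes (M, 1000000) with a median of 11.6 M, and the ATAC libraries held 1.24 to 6.24 M reads in peaks with a median of 3.55 M. Fos, an immediate early gene, lay at 25.1 to 43.3 normalised counts in the controls, at 1715 and 1738 after 1 h of BDNF and at 5742 and 5274 after 1 h of KCl. The cultures were mixed: the summed level of 6 neuronal markers was 54695 to 60973 in the controls, that of 6 astrocyte markers 10033 to 12928, of 6 markers of the oligodendrocyte lineage 5838 to 6334, of 6 markers of proliferating progenitors 8842 to 12171, of 4 vascular markers 386 to 1393 and of 6 microglial markers 119 to 193. No marker was at 0 in every library, while S100b, P2ry12 and Cldn5 had means below 10. The sum of 4 excitatory markers was 4184 to 4772 in the controls, 3336 to 3378 at 1 h of BDNF and 5526 to 5576 at 6 h of KCl. That of 5 inhibitory markers was 10398 to 12186 in the controls and 12622 to 15379 in the stimulated libraries. With limma at an adjusted p below 0.1, 2 of the 4 excitatory markers were called lower and 2 higher at 1 h of BDNF. Of the 5 inhibitory markers 1 was called lower and 4 higher at 6 h of KCl. At 1 h of KCl the neuronal sum was 59691 to 65752, the progenitor sum 11098 to 12570 and the oligodendrocyte sum 4304 to 4863, the last below every control. By 6 h of KCl the astrocyte sum was 7736 to 8937, below every control, and the oligodendrocyte sum was 6924 to 7295, above every control. Of the 6 markers of the oligodendrocyte lineage 3 were then called lower and 2 higher. The progenitor sum was then 7368 to 8840, just under the lowest control. At 10 h of KCl the astrocyte sum was 8429 to 8883, below every control, and the oligodendrocyte sum 6639 to 7303, above every control. Among the oligodendrocyte markers 1 was then called lower and 1 higher. At 6 h of BDNF the oligodendrocyte sum was 5534 to 5643 and the progenitor sum 8330 to 8786, both below every control. Among the oligodendrocyte markers 3 were then called lower and 1 higher. The part of these cell types in the results below was not tested. In such bulk samples fewer cells of a type and less RNA per cell cannot be told apart.

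C2H2 zinc-finger proteins bind DNA through arrays of short fingers that each hold a zinc ion, and many carry an N-terminal KRAB domain. The KRAB domain recruits the corepressor Trim28, also called KAP1, and through it the methyltransferase Setdb1, so these proteins are known mostly as repressors, above all of transposable elements. Their genes arose by local duplication and lie in clusters of similar copies, in which reads can be hard to place. Among the 107 members 82 encoded a protein in which a pattern search found a KRAB box. In the proteins of 23 the search found none, which does not show that they lack one, and 2 had no coding transcript. The number of fingers had a median of 11 and ranged from 0 to 23, with a median of 11 among members with a KRAB box and 6 among those without. No finger was found by the pattern search in Zfp703, Zfp781, Zfp839, Zfp935 and Zfp957. On 8 chromosomes 70 members formed 13 clusters, and members were spread over 17 chromosomes in all. At least 20% of the 50-base stretches of 26 members also occurred in another gene, and exons of 32 members overlapped those of another gene. Whether counting used strand is not given in the sources used here, so values of members with an overlap on either strand are uncertain. Besides those marked below, they include Zfp703, Zfp704, Zfp706, Zfp710, Zfp738, Zfp740, Zfp777, Zfp800, Zfp827, Zfp963 and Zfp984. Members with at least 20% of stretches shared include Zfp747, Zfp825, Zfp947, Zfp960 and Zfp963, which are not marked again below.

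Promoter sequences are shown for the 4 members whose window held the same run of 14 bases, since 3 of them (Zfp712, Zfp759 and Zfp708) are neighbours on chromosome 13 that were low after 1 h of KCl, and for Zfp948, the member that rose most after 1 h of BDNF. Each window runs 5′ to 3′ from 250 bases before to 50 bases after a RefSeq transcription start site (GRCm38.p6). Capitals mark the shared run, TGGGAAATGTAGTC, and the CREB half-site TGACGT, which reads ACGTCA on the other strand. The windows lie at chr13:67061121-67061420 (minus strand, Zfp712), chr13:67127978-67128277 (plus strand, Zfp759), chr13:67081496-67081795 (minus strand, the second of the start sites of Zfp708), chr11:50841503-50841802 (minus strand, Zfp879) and chr17:21566728-21567027 (plus strand, Zfp948).
Zfp712: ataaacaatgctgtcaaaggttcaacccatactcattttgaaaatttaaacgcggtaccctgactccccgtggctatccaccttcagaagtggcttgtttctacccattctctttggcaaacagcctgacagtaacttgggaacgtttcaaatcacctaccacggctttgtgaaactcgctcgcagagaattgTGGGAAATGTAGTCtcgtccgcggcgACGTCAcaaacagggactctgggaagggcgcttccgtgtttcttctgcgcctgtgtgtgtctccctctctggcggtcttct
Zfp759: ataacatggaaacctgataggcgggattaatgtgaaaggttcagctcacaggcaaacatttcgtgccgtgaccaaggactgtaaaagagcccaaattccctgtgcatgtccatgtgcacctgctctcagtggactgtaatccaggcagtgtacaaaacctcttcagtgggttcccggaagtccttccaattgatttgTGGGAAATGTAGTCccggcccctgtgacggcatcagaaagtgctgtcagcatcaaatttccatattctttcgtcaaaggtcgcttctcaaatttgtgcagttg
Zfp708: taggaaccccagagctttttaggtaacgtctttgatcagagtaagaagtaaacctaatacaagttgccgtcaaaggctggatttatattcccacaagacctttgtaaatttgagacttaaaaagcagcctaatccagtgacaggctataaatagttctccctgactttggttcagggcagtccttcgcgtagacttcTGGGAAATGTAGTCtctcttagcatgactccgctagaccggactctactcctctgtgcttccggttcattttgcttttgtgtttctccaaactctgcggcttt
Zfp879: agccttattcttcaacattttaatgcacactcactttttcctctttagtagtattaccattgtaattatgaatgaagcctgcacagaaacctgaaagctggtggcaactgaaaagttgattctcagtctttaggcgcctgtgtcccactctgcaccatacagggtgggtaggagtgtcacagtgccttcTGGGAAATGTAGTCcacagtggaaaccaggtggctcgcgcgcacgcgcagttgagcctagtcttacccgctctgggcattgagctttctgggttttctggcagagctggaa
Zfp948: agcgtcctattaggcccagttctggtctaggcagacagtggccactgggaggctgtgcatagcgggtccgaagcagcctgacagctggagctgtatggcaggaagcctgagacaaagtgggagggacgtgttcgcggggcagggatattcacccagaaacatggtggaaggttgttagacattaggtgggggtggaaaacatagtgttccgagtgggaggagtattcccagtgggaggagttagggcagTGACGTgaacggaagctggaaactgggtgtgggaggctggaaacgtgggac
The run began 57 bases before the start site in Zfp712, 53 before it in Zfp759 and Zfp708, and 61 before it in Zfp879. It was found by comparing the windows of Zfp712, Zfp759 and Zfp708 after their values had been seen, so it is a description only. Searched on both strands, it was in the windows of 4 of 94 members with a RefSeq window (4.26%), 13 of 180 Zfp genes with a number below 700 (7.22%), 53 of 10863 tested genes (0.488%) and 65 of 27025 genes in all (0.241%). The TGACGT half-site was in 14.9% of members, 13.1% of the 10863 tested genes with a window and 8.37% of all genes. In the same order the GC box GGGCGG was in 42.6%, 69.1% and 38.2%, the ETS site CCGGAAGT in 5.32%, 8.56% and 4.31%, and the E-box CACGTG in 14.9%, 11.6% and 8.09%. The YY1 site AAGATGGCG was in 1.06%, 3.32% and 1.64%, and the AP-1 site TGANTCA in 5.32%, 5.79% and 8.97%. These shares are a description. For GC content the window with the highest value was taken for each gene. The median was 53.0% over the 94 members, against 62.3% over the 10863 tested genes with a window.

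Silenced neurons expressed the members at modest levels. The mean over the 18 libraries ran from 11.6 to 4008 normalised counts with a median of 183, below the median of 293 over all genes tested and that of 299 over the 224 tested Zfp genes with a number below 700. By library mean the highest were Zfp704 (4008), Zfp706 (2952), Zfp740 (1950), Zfp821 (1028) and Zfp711 (784). Per kilobase of exon the members ran from 2.46 to 593 normalised counts, and Zfp706, which encodes a protein of only 76 residues with 1 finger, led with 593, followed by Zfp740 with 383 and Zfp704 with 263. Zfp712 had 33.1 per kilobase and Zfp759 30.5. Time in silencing alone was not seen to move the members. Comparing the 6 h or the 10 h controls with the 1 h controls, 0 members and 0% of all genes were called by limma at an adjusted p below 0.1, edgeR and DESeq2 also called 0 members, and 1 and 0 members had an unadjusted p below 0.05.

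The values after 1 h of KCl are given first, as a description. Of the 107, 84 were called lower and 6 higher than the 6 pooled controls (limma on log2 of the normalised count plus 1, Benjamini-Hochberg adjusted p below 0.1), beside 28.2% of all genes called lower and 26.5% called higher. Because the members were chosen with this comparison in view, nothing is read from these shares. The median log2 fold change was -0.96 over members, -0.70 over the Zfp genes with a number below 700 and 0.00 over all genes. Called lower by at least 1 on the log2 scale were 53 members, beside 898 of the 16209 genes tested. The summed level of all members was 35404 to 37133 in the controls and 24992 and 23685 after 1 h of KCl.

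**Figure D1:**
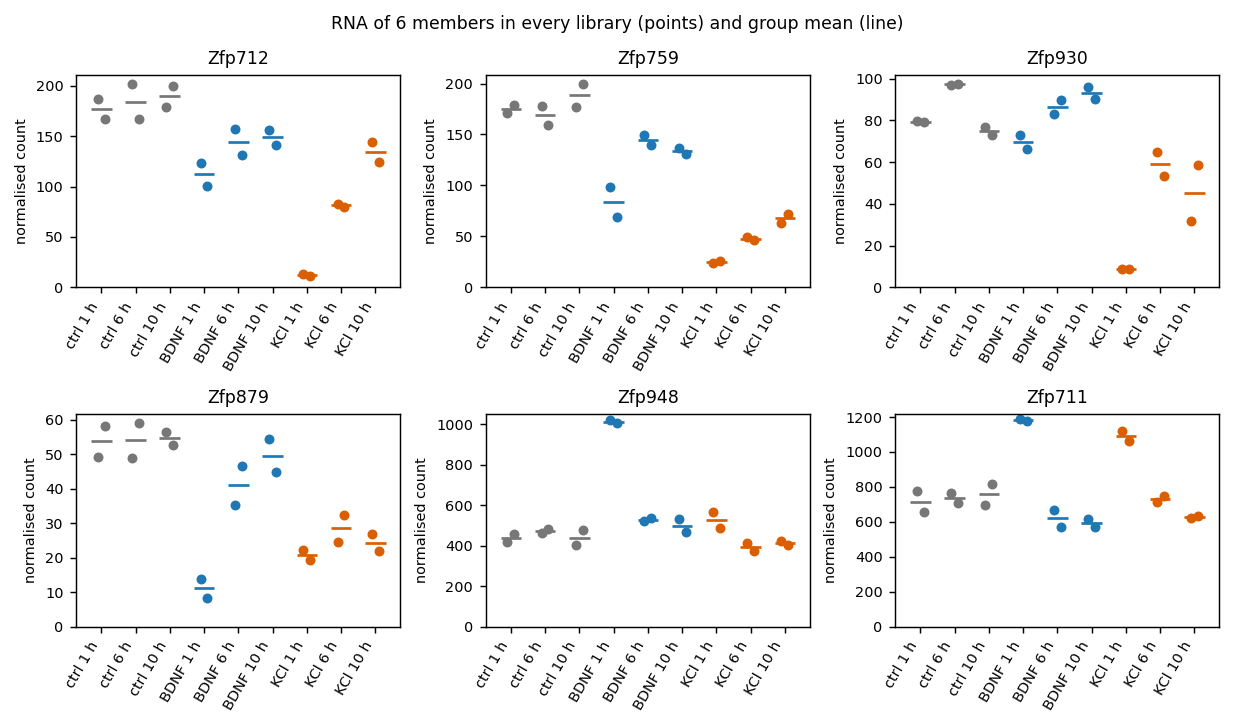
Normalised RNA count (vertical axis) of 6 members in each of the 18 libraries (points), grouped along the horizontal axis by treatment and time, with bars at the group means. Zfp712, Zfp759 and Zfp930 were lowest after 1 h of KCl, Zfp879 was lowest after 1 h of BDNF, and Zfp948 and Zfp711 stood highest after 1 h of BDNF.

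Zfp712 (ENSMUSG00000090641), a KRAB gene with 20 fingers at chr13:67038596-67061170 on the minus strand, was the lowest of them relative to its controls. Its normalised count was 183.5 ± 15.4 (SD, n = 6) in the controls, with a lowest value of 167, a median of 183 and a highest of 202. After 1 h of KCl the 2 libraries held 13.6 and 10.7, far below every control, and the log2 fold change was -3.82 ± 0.13 (SE). Zfp759 (ENSMUSG00000057396), its neighbour with 19 fingers at chr13:67121660-67141787 on the plus strand, held 160 to 200 in the controls (median 177) and 23.5 and 25.7 after 1 h of KCl (log2 fold change -2.80 ± 0.13). Zfp708, known as a repressor of a family of retrotransposons, lies between them. It held 55.8 to 89.1 in the controls (median 66.6) and 13.6 and 6.42 after KCl (log2 fold change -2.75 ± 0.23). Since 94.9% of its 50-base stretches also occur in other genes and it overlaps Rslcan18 and Gm28557 on the same strand, its counts are uncertain, and those of Zfp712 share an overlap with Gm46440 on the opposite strand. All 3 groups of values were apart from their controls with no overlap.

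Members elsewhere in the genome were low at the same time. Zfp930 on chromosome 8, with a KRAB box and 12 fingers, held 73.1 to 97.5 in the controls (median 79.2) and 8.64 and 8.55 after 1 h of KCl, a log2 fold change of -3.13 ± 0.19. Zfp799 on chromosome 17, a more abundant member with 16 fingers, held 713 to 833 in the controls (median 728) and 135 and 127 after KCl, a log2 fold change of -2.52 ± 0.08. Zfp933 on chromosome 4 held 258 to 307 in the controls (median 285) and 64.2 and 44.9 after KCl, a log2 fold change of -2.38 ± 0.12. None of these values overlapped the controls, and Zfp799 shares exonic bases with Gm26693 on the opposite strand. The members that stood higher at this time did so by less. They included Zfp711 (1122 and 1063 against 656 to 817, log2 fold change 0.57 ± 0.08), Zfp954 (294 and 260 against 173 to 212, 0.47 ± 0.12) and Zfp957 (32.1 and 27.8 against 10.8 to 23.0, 0.83 ± 0.30). Without KCl 1 h library A the value of Zfp957 was 0.73 and it was no longer called.

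**Figure D2:**
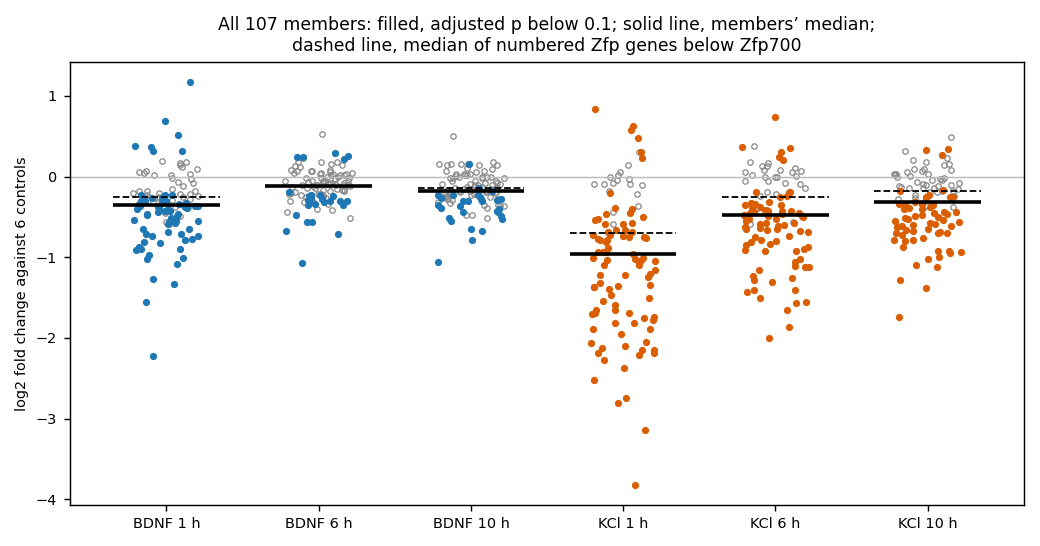
Log2 fold change against the 6 pooled controls (vertical axis) of each of the 107 members (points) in the 6 comparisons (horizontal axis), filled where called at an adjusted p below 0.1. Solid lines mark the members' medians, at 1, 6 and 10 h -0.36, -0.11 and -0.18 with BDNF against -0.96, -0.48 and -0.32 with KCl, and dashed lines the medians of Zfp genes with a number below 700.

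By 6 h of KCl fewer members than at 1 h stood far below the controls, while others were at their lowest level. Against the controls 72 members were lower and 6 higher, beside 33.1% and 33.4% of all genes, and the median log2 fold change was -0.48 against -0.26 over the Zfp genes with a number below 700. At least 1 on the log2 scale separated 19 of the 72 from the controls, and 1365 of the 16209 genes tested were called as far below. Compared directly with 1 h of KCl, 64 members were called higher and 17 lower at 6 h (30.9% and 28.7% of all genes), with a median log2 fold change of 0.64. The 1 h values bear on the choice of the members, so a return from them is partly fixed by that choice and is a description. Zfp712 was back at 82.6 and 79.9, still below every control (log2 fold change -1.16 ± 0.13, adjusted p = 1.5e-07 by limma). Zfp799 was at 449 and 548 at 6 h, a log2 fold change of 1.91 ± 0.10 from 1 h, and was below the controls (-0.61, adjusted p = 1.4e-06 by limma). Zfp773, a chromosome 7 member with 8 fingers, went from 32.1 and 27.8 at 1 h to 108 and 115 at 6 h, against 116 to 144 in the controls (6 h against 1 h 1.86 ± 0.17). At 6 h it was not called against the controls (log2 fold change -0.20, adjusted p = 0.22 by limma).

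A smaller set was lower at 6 h than at 1 h of KCl. Zfp808 at chr13:62129886-62236144 held 27.6 to 51.9 in the controls (median 33.5), 28.4 and 25.7 at 1 h, 7.87 and 8.10 at 6 h of KCl, and 18.3 and 15.3 at 10 h. Its fall at 6 h was a log2 fold change of -2.002 ± 0.23 (adjusted p = 1.3e-07 by limma), although 28.2% of its 50-base stretches occur in other genes. Zfp784 held 79.9 to 108 in the controls (median 88.1), 75.3 and 104 at 1 h and 35.4 and 25.5 at 6 h (log2 fold change at 6 h -1.55 ± 0.18, adjusted p = 2.3e-07). Its 1 h values overlapped the controls and its 6 h values did not, and it shares exonic bases with Zfp865 and 4632433K11Rik on the opposite strand. Zfp759, by contrast with Zfp712, was still far below the controls at 6 h with 49.2 and 46.3 (-1.87 ± 0.13, adjusted p = 1.6e-10 by limma). Further falls at 6 h were those of Zfp992 (-1.66 ± 0.18, adjusted p = 8.8e-08, 43.0% of stretches shared) and Zfp964 (-1.56 ± 0.28, adjusted p = 4.4e-05). The abundant Zfp706 fell from 2863 to 3086 in the controls to 1870 and 2000 (-0.64 ± 0.06, adjusted p = 5.2e-09).

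Some members had crossed to the other side of the controls by 6 h. Zfp846 was at 413 to 463 in the controls, 252 and 261 at 1 h and 519 and 602 at 6 h, above every control (log2 fold change 0.37 ± 0.08, adjusted p = 0.00048 by limma). Zfp770 moved likewise from 261 and 219 at 1 h to 551 and 658 at 6 h (0.30 at 6 h, adjusted p = 0.0051), a call that was lost when KCl 6 h library B was left out (0.17, adjusted p = 0.18). Zfp933 was at 364 and 310 at 6 h (0.25, adjusted p = 0.072), a call that was lost when KCl 6 h library A (0.13, adjusted p = 0.47), control 1 h library A (0.22, adjusted p = 0.12) or control 10 h library A (0.24, adjusted p = 0.10) was left out. The largest rise at this time was that of Zfp954, with 294 and 375 against 173 to 212 in the controls (0.74 ± 0.12, adjusted p = 1.1e-05).

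At 10 h of KCl 57 members were lower and 3 higher than the controls (28.2% and 29.0% of all genes). Of the 57, 7 were lower by at least 1 on the log2 scale, beside 719 of the 16209 genes tested. The median log2 fold change was -0.32, against -0.18 over the Zfp genes with a number below 700. Zfp759 held 63.6 and 71.9 and was still below every control (-1.38 ± 0.13, adjusted p = 3.4e-08 by limma). Zfp712 held 144 and 124 (-0.45, adjusted p = 0.0076), and this call was lost when KCl 10 h library B was left out (-0.34, adjusted p = 0.13). Zfp853 held 29.0 to 61.7 in the controls and fell to 11.0 and 8.71 (-1.74 ± 0.25, adjusted p = 7.2e-06). Zfp827, which is known to bring the NuRD complex to telomeres, fell from 833 to 1024 in the controls to 476 and 398 (-1.10, adjusted p = 8.3e-10), as it had at 6 h with 458 and 397 (-1.13, adjusted p = 2.8e-10). Zfp706 was at 1776 and 1697 (-0.80 ± 0.06, adjusted p = 3.7e-10). Of the 3 rises, that of Zfp747 was 0.35 (adjusted p = 0.067) and was lost when KCl 10 h library A (adjusted p = 0.17) or B (adjusted p = 0.23) or control 6 h library A (adjusted p = 0.12) was left out and in DESeq2 (adjusted p = 0.14). Between 6 h and 10 h of KCl 22 members rose and 5 fell (12.9% and 9.66% of all genes). The 27 calls became 13 without KCl 6 h library B and 6 without KCl 10 h library A.

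More members were called lower than higher at 1 h of BDNF. Against the controls 60 members were lower and 7 higher, beside 19.0% and 21.3% of all genes, and the median log2 fold change was -0.36, against -0.25 over the Zfp genes with a number below 700 and 0.00 over all genes. Zfp879 at chr11:50832031-50841552, with a KRAB box and 13 fingers, fell most. It held 49.0 to 59.1 in the controls (median 54.5) and 13.7 and 8.40 after 1 h of BDNF, a log2 fold change of -2.23 ± 0.21 (adjusted p = 2.2e-08 by limma), and no BDNF value reached the controls. Zfp773 fell from 116 to 144 in the controls (median 128) to 36.5 and 50.4 (-1.55 ± 0.14, adjusted p = 9.2e-09). Zfp759 fell to 98.8 and 69.5 (-1.09 ± 0.13, adjusted p = 1.5e-06) and Zfp712 to 123 and 101 (-0.71 ± 0.13, adjusted p = 0.00022), both below every control. Zfp947 (6.08 and 9.16 against 14.3 to 32.0, -1.34 ± 0.32, adjusted p = 0.0026) and Zfp791 (21.3 and 19.8 against 41.5 to 69.7, -1.27 ± 0.23, adjusted p = 0.00014) completed the 5 largest falls.

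The 5 largest rises after 1 h of BDNF were in members whose controls lay above the median level of all members. Zfp948 at chr17:21567008-21588699, a KRAB gene with 15 fingers, held 401 to 484 in the controls (median 460) and 1020 and 1008 after BDNF, a log2 fold change of 1.17 ± 0.08 (adjusted p = 3.2e-10 by limma). Both values were above every control. Zfp711, an X-linked gene in which no KRAB box was found, rose from 656 to 817 (median 735) to 1188 and 1178 (0.69 ± 0.08, adjusted p = 5.4e-07 by limma). Its human counterpart is linked to intellectual disability. Zfp703, in which no finger was found, rose from 375 to 443 to 555 and 610 (0.51 ± 0.09, adjusted p = 0.00014). Zfp710 rose to 546 and 510 from 380 to 436 (0.38 ± 0.08, adjusted p = 0.00081) and Zfp706 to 4007 and 3789 (0.37 ± 0.06, adjusted p = 3.4e-05).

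**Figure D3:**
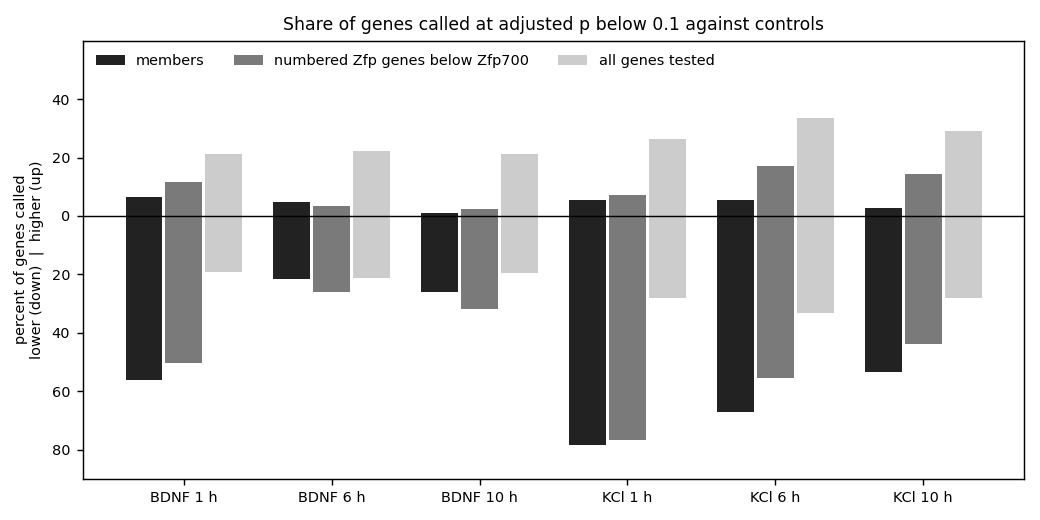
Percent of genes called higher (up) or lower (down) at an adjusted p below 0.1 (vertical axis) in each comparison with the controls (horizontal axis), for the 107 members, the 224 Zfp genes with a number below 700 and all 16209 genes tested. All genes are called in similar shares up and down, while both sets of Zfp genes are called mostly lower.

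At the later times of BDNF fewer members differed. At 6 h 23 were lower and 5 higher (21.1% and 22.1% of all genes) with a median log2 fold change of -0.11, equal at 2 decimals to that of the Zfp genes with a number below 700. Without BDNF 6 h library B the 28 calls became 10. At 10 h 28 were lower and 1 higher (19.5% and 21.1% of all genes) with a median of -0.18, and the 29 calls became 19 when BDNF 10 h library A was left out and 9 when B was. The member that fell most at 6 h was Zfp811, with 212 to 262 in the controls (median 248), 123 and 106 at 6 h of BDNF (-1.07 ± 0.11, adjusted p = 7.3e-08 by limma) and 147 and 132 at 10 h (-0.78, adjusted p = 8e-06). Zfp827 was at 568 and 574 at 6 h (-0.71 ± 0.08, adjusted p = 9.4e-07), Zfp760 at 360 and 352 (-0.57, adjusted p = 0.00022) and Zfp867 at 241 and 232 (-0.56, adjusted p = 8.5e-05). At 10 h Zfp781 was at 13.6 and 16.7 against 27.3 to 36.2 (-1.06 ± 0.21, adjusted p = 0.00067), with 96.3% of its stretches shared, and Zfp738 at 200 and 180 (-0.56, adjusted p = 0.0015). Zfp825 (-0.67, adjusted p = 0.038) was no longer called without BDNF 10 h library A (adjusted p = 0.12) or B (adjusted p = 0.23).

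Compared with 1 h of BDNF, 31 members rose and 8 fell by 6 h (15.8% and 17.7% of all genes). The 39 calls became 24 without BDNF 1 h library B and 23 without BDNF 6 h library A. Zfp879 returned to 35.1 and 46.7 (6 h against 1 h 1.82 ± 0.25, adjusted p = 1.3e-05 by limma) and Zfp773 to 80.2 and 79.6 (0.88, adjusted p = 0.00043), which was still below every control (-0.67, adjusted p = 0.00058). Zfp948 came down to 521 and 539 (-0.94 from 1 h to 6 h), and its remaining rise of 0.24 over the controls (adjusted p = 0.034) was lost when BDNF 6 h library A (adjusted p = 0.12) or B (adjusted p = 0.21) was left out. Zfp712 held 157 and 132 at 6 h (-0.35, adjusted p = 0.046), a call lost when BDNF 6 h library B was left out (-0.22, adjusted p = 0.41). Its difference at 10 h (-0.30, adjusted p = 0.089) was lost without control 1 h library A, control 6 h library A, control 10 h library A or B or BDNF 10 h library A or B, with adjusted p up to 0.42. Zfp959 was called in none of the 6 comparisons, which share the same controls.

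**Figure D4:**
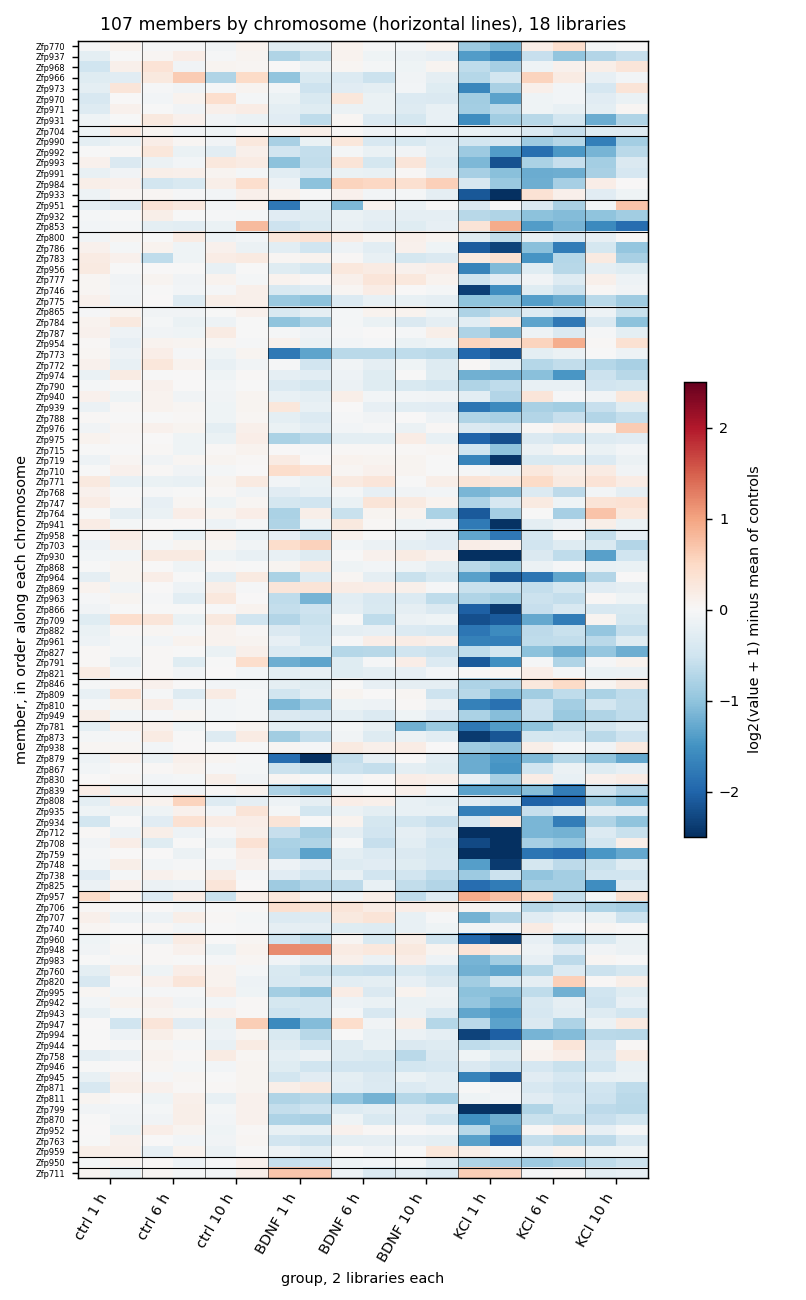
Log2 of the normalised count plus 1, minus the mean of the 6 controls (colour, clipped at 2.5 either way), for the 107 members (rows, in order along the chromosomes, with lines between chromosomes) in the 18 libraries (columns). The 2 KCl 1 h columns are the lowest for most rows, and the summed member level in them was 24992 and 23685 against at least 27694 in every other library.

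The stimuli were compared directly at each time. At 1 h, where the KCl libraries bear on the choice of the members and values are a description, 72 members were called higher with BDNF than with KCl and 7 lower (24.6% and 18.2% of all genes), with a median difference of 0.62 on the log2 scale, against 0.47 over the Zfp genes with a number below 700. At 6 h the counts were 52 and 12 (29.6% and 27.8%, median 0.37 against 0.20) and at 10 h 34 and 7 (23.1% and 21.8%, median 0.15 against 0.01). Without BDNF 10 h library A the 41 calls at 10 h became 26. Zfp930 differed by 2.88 ± 0.23 at 1 h. It held 73.0 and 66.4 after BDNF, both below every control though the first only narrowly, against 8.64 and 8.55 after KCl. Zfp933 differed by 2.41 ± 0.14, with 301 and 279 after BDNF. For Zfp712 the difference was 3.11 ± 0.16 at 1 h and 0.82 ± 0.16 at 6 h (adjusted p = 0.00025 by limma). At 10 h it was not called (0.15, adjusted p = 0.50).

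Other members were lower with BDNF than with KCl. At 1 h Zfp784 was at 44.1 and 51.9 after BDNF and at 75.3 and 104 after KCl (difference -0.87 ± 0.22). Zfp879 differed by -0.88 ± 0.25, with 22.2 and 19.3 after KCl, and by -0.56 without BDNF 1 h library B. Zfp853 differed by -1.07 ± 0.31, and by -0.78 without KCl 1 h library B. Neither was called without that library. At 6 h Zfp811 (-0.71 ± 0.13, adjusted p = 9.6e-05 by limma) and Zfp954 (-0.79 ± 0.14, adjusted p = 7.7e-05) were lower with BDNF, whereas Zfp808 (2.16 ± 0.28, adjusted p = 1.4e-06), Zfp759 (1.58 ± 0.16, adjusted p = 7.4e-08) and Zfp984 (1.55 ± 0.37, adjusted p = 0.0014, 54.5% of stretches shared) were higher. At 10 h Zfp773 was lower with BDNF (82.5 and 80.2 against 127 and 118, -0.58 ± 0.17, adjusted p = 0.0089). In contrast, Zfp853 (1.49 ± 0.31, adjusted p = 0.00066), Zfp930 (1.09 ± 0.23, adjusted p = 0.00076) and Zfp879 (0.99 ± 0.25, adjusted p = 0.0037) were higher.

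A few members were called in opposite directions by the stimuli against the controls, Zfp800 and Zfp869 at 1 h, Zfp706, Zfp777 and Zfp948 at 6 h and Zfp706 at 10 h. Of these Zfp706 differed most. Its level with BDNF was 3724 and 3428 at 6 h (0.24, adjusted p = 0.0024 by limma) and 3382 and 3350 at 10 h. The BDNF rise at 10 h was 0.16 (adjusted p = 0.042) and was lost when BDNF 10 h library A was left out (0.15, adjusted p = 0.19) or B (0.16, adjusted p = 0.17). The difference between the stimuli was 0.89 ± 0.07 at 6 h (adjusted p = 1.9e-09 by limma) and 0.95 ± 0.07 at 10 h (adjusted p = 1e-09). Zfp777 was 0.22 above the controls at 6 h of BDNF (adjusted p = 0.066) and -0.21 at 6 h of KCl (adjusted p = 0.057). The first call was lost when BDNF 6 h library B was left out (0.14, adjusted p = 0.48) and when control 1 h library B or control 6 h library B was (adjusted p = 0.11 in each), and the second when KCl 6 h library B was left out (-0.09, adjusted p = 0.53). Zfp948 was at -0.20 at 6 h of KCl (adjusted p = 0.049), a call lost when KCl 6 h library B was left out (-0.12, adjusted p = 0.37), and its BDNF call at 6 h also rested on single libraries. At 1 h Zfp869 was at 0.31 with BDNF (adjusted p = 0.0084 by limma) and, as a description, at -0.57 with KCl. Zfp800 was at 0.32 with BDNF (adjusted p = 0.028), lost when BDNF 1 h library A (adjusted p = 0.11) or B (adjusted p = 0.19) was left out, and at -0.46 with KCl. No member was called in opposite directions with at least 0.5 on the log2 scale in both.

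The members were then described by features that had no part in their choice. After 1 h of BDNF 49 of the 82 members in which a KRAB box was found were lower (median log2 fold change -0.39). Of those in which none was found 11 of 25 were lower (-0.22). In the same order 2 and 5 were higher. The 25 without include the 2 members that had no coding transcript, in which no box could be sought. The pattern search can miss a box, so "without" means only that none was found. After 1 h of KCl 70 of 82 with a KRAB box were lower (median -1.06) and 14 of 25 without (-0.46). At 6 h of KCl the counts were 55 of 82 (-0.49) and 17 of 25 (-0.42), and at 10 h 43 (-0.35) and 14 (-0.26). Between 1 h and 6 h of KCl 54 KRAB members rose and 8 fell (median 0.74), against 10 and 9 of those without (0.04). Of all genes 19.0% were called lower and 21.3% higher at 1 h of BDNF. With KCl 28.2% of all genes were called lower at 1 h, 33.1% at 6 h and 28.2% at 10 h. Between 1 h and 6 h of KCl 30.9% of all genes rose and 28.7% fell. The counts of members are descriptions, those that use the KCl 1 h libraries included, and the differences between the classes were not tested. Leaving aside the members that share 20% or more of their 50-base stretches, 62 of 81 were lower after 1 h of KCl (median -0.94) and 46 of 81 after 1 h of BDNF (-0.34).

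By position, the lowest cluster after 1 h of KCl was that of Zfp712, Zfp708, Zfp759, Zfp748 and Zfp738 at chr13:67038596-67687071. Zfp712 was named in the choice for its fall in this comparison, so this rank is partly fixed and the KCl 1 h counts are a description. Of all genes 28.2% were called lower at 1 h of KCl, 33.1% at 6 h and 19.0% at 1 h of BDNF. The 5 members of this cluster had a median log2 fold change of -2.75 at 1 h of KCl, with all 5 lower, -0.92 at 6 h and -0.45 at 10 h. At 1 h of BDNF their median was -0.71, with 4 lower. The other cluster of chromosome 13, which holds Zfp808 and 2 further members, had a median of -0.36 at 1 h and -1.44 at 6 h of KCl, with 1 and 3 members lower. In the largest cluster, 13 members on chromosome 17, the median was -1.01 at 1 h of KCl with 11 lower and 1 higher, and -0.35 at 6 h with 9 lower. A chromosome 2 cluster of 6 members had 5 lower at 1 h (median -0.93) and 1 at 6 h (-0.05). Of the 37 members outside any cluster, 26 were lower at 1 h of KCl (median -0.73) and 22 at 6 h (-0.42).

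The partners through which KRAB proteins act were called in both directions. Of 21 genes listed for this role, all tested, 3 were lower and 7 higher at 1 h of BDNF (14.3% and 33.3%, beside 19.0% and 21.3% of all genes). At 6 h the counts were 9 and 2 (42.9% and 9.52%, beside 21.1% and 22.1%), and at 10 h 6 and 1 (28.6% and 4.76%, beside 19.5% and 21.1%). With KCl 7 were lower and 4 higher at 1 h (33.3% and 19.0%, beside 28.2% and 26.5% of all genes), again 7 and 4 at 6 h (beside 33.1% and 33.4%), and 8 against 2 at 10 h (38.1% and 9.52%, beside 28.2% and 29.0%). The list's median log2 fold change lay between -0.17 and 0.01. Trim28, the corepressor bound by the KRAB domain, rose from 3470 to 3791 in the controls to 5317 and 5708 after 1 h of KCl (0.62, adjusted p = 3.9e-09 by limma). Uhrf1, which reads hemimethylated DNA, fell at that time (-0.70, adjusted p = 0.00013), as did Tasor, a subunit of the HUSH silencing complex, after 1 h of BDNF (-0.52, adjusted p = 4.2e-05). Setdb1 was called in none of the 6 comparisons, with 1181 to 1281 in the controls and 1267 and 1326 after 1 h of KCl.

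ATAC-seq gave a readout at the members' promoters that their choice had not used. A peak within 1000 bp before to 100 bp after an annotated start site was present for 92 members (96 peaks), and 15 members had none. In edgeR's quasi-likelihood test with LOESS offsets, 3 of the 96 peaks gained reads and 5 lost them after 1 h of BDNF. Of all 56383 peaks tested 16.4% were called in either direction (6321 gained and 2933 lost). At 6 h of BDNF 3 gained and 2 lost (9.40% of all peaks, 4131 gained and 1168 lost). At 10 h 3 gained and 0 lost (8.27%, 3513 and 1148). With KCl 1 gained and 5 lost at 1 h (7.97% of all peaks, 2754 gained and 1738 lost). The counts were 0 and 6 at 6 h (6.74%, 2623 and 1179) and 1 against 2 at 10 h (7.08%, 2810 and 1180). Median log2 fold changes lay between -0.12 and 0.07 in the 6 comparisons. The split depended on the scaling. With TMM factors 1 gained and 15 lost at 1 h of KCl, 0 and 19 at 6 h, and 0 against 13 at 10 h. With BDNF the TMM split was 2 and 10 at 1 h, 2 and 1 at 6 h, and 1 against 3 at 10 h. The share of all peaks called with TMM factors is not given here, so nothing about the members is read from these counts. Of the calls with LOESS offsets, those of Zfp957 at 1 h of BDNF and Zfp960 at 10 h of KCl alone were kept whichever single library was left out. Without ATAC KCl 1 h library A or B the 6 calls at 1 h of KCl became 1 and 0, without ATAC BDNF 1 h library A or B the 8 at 1 h of BDNF became 3 in either case, without ATAC BDNF 6 h library A or B the 5 at 6 h became 2 and 1, and without ATAC KCl 6 h library A or B the 6 at 6 h of KCl became 2 in either case. The 3 calls at 10 h of BDNF became 1 without ATAC BDNF 10 h library A, 9 without library B, 5 without control 1 h library A and 6 without control 10 h library A or B. The 3 at 10 h of KCl became 5 without control 1 h library A and 6 without control 10 h library B.

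At Zfp712 the promoter peak was higher at the time its RNA was lowest. The peak at chr13:67060696-67061418 held 153 to 191 scaled reads in the 6 ATAC controls (median 172) and 234 and 297 after 1 h of KCl, above every control (log2 fold change 0.63 ± 0.12, adjusted p = 0.0002 by edgeR). Without ATAC KCl 1 h library B the difference was 0.43 (adjusted p = 0.19). With BDNF it held 194 and 216 at 1 h and 222 and 217 at 6 h (0.34 ± 0.12, adjusted p = 0.071), a call that single left-out libraries also ended. At the promoter of Zfp759 (chr13:67127853-67128695) the controls held 82.6 to 143 (median 101) and the KCl 1 h libraries 98.7 and 95.5, within the control range (-0.11, adjusted p = 0.79). At that of Zfp708 (chr13:67081049-67081741) the values were 107 to 126 and, after KCl, 102 in both libraries (-0.22, adjusted p = 0.48). The promoter windows of these 3 genes, with the shared run in capitals above, lie within or overlap these peaks.

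**Figure D5:**
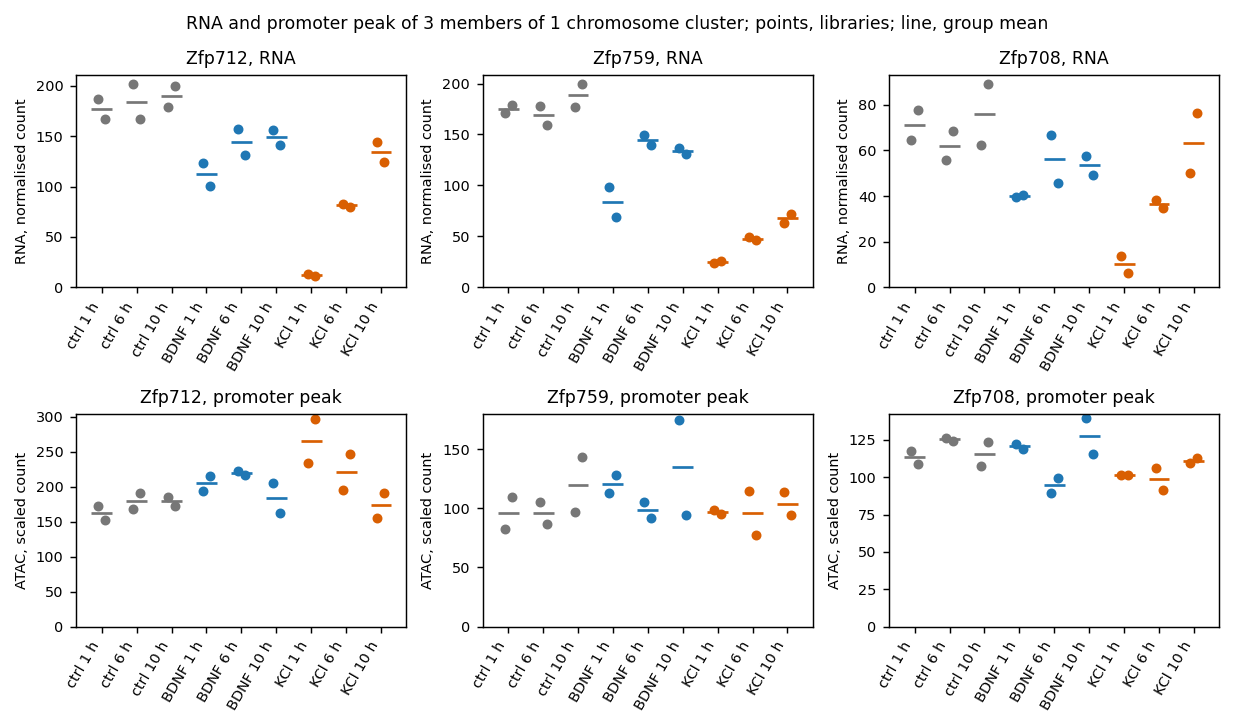
RNA (normalised count) and promoter accessibility (scaled ATAC reads) of Zfp712, Zfp759 and Zfp708 in each library (points; bars are group means), by treatment and time along the horizontal axis. After 1 h of KCl the RNA of all 3 was below every control, while the promoter peak of Zfp712, at 234 and 297, was above its controls and that of Zfp759 lay within them.

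Few other promoter calls were firm. The peak of Zfp957 (chr14:79223701-79224026) rose from 17.2 to 29.1 scaled reads in the controls to 49.6 and 54.2 after 1 h of BDNF (1.13 ± 0.29, adjusted p = 0.0023 by edgeR), while its RNA was at 19.8 and 17.6 against 10.8 to 23.0, within the controls. The peak of Zfp960 (chr17:17063658-17064335) rose from 408 to 569 to 674 and 618 after 10 h of KCl (0.45 ± 0.09, adjusted p = 0.00052). For Zfp948, whose RNA more than doubled at 1 h of BDNF, the peak held 239 to 317 in the controls and 305 and 341 after BDNF and was not called. For Zfp706 the peak was lower at 1 h of BDNF (296 and 261 against 295 to 399, -0.34 ± 0.10, adjusted p = 0.013), when its RNA was higher, but this call was lost without ATAC BDNF 1 h library B. The peak of Zfp879 held 87.9 to 112 in the controls and 67.6 and 89.6 after 1 h of BDNF, overlapping them.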

How the data were processed

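RNA-seq and ATAC-seq were measured in 36 samples, 2 of each kind in each of 9 groups. Per the labels and the study's methods, the authors trimmed reads with Trimmomatic, aligned RNA reads with TopHat2 (mm10, GENCODE M16) and used DESeq2. Neither the read counter nor its strand setting is given in the sources used here. RNA values as deposited have the unit of a signal, counts divided by a size factor, and all of them gave whole reads when multiplied back. The authors mapped ATAC reads with Bowtie2, called peaks with MACS2 and used DiffBind with LOESS scaling. The deposited ATAC table holds raw counts per peak, although it is called normalised. Further deposited tables hold the authors' own fold changes and p-values, which were not used; gene symbols alone were taken from them. RNA columns name a group and, as a letter, a library. ATAC columns name a group without a letter, and their libraries are called A and B here by column order. ATAC A and B therefore need not match RNA A and B. In all, 0 columns of values were left unused.

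Genes with a mean of at least 10 (16209) were fitted with limma 3.58.1 (R 4.3.3) on log2(value + 1) with trend and robust moderation, over 7 levels (6 stimulated groups and the pooled controls). Log2 fold changes on this scale understate the change of low genes. P-values were two-sided, adjusted by Benjamini-Hochberg over all genes tested and called below 0.1. The 56383 of 58177 peaks with a mean of at least 10 were fitted with edgeR 4.0.16 with LOESS offsets and called likewise. The 2 libraries of a group differed by more than counting error, for which the chi-square per degree of freedom is about 1. It was 2.44 to 39.6 between RNA libraries and 2.06 to 2.58 between ATAC libraries. The 39.6 was that of KCl 6 h, and the next highest RNA value was 10.4. Libraries of 8.51 to 36.7 M (1000000) reads gave low genes the least precision. Scripts were tested on simulated data (R; Python 3.11.15, pandas 2.3.3). Fingers and KRAB boxes were searched by pattern in proteins translated from GENCODE M21 coding sequences on the same build. Promoter windows came from RefSeq, in which 94 of 107 symbols matched.

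The members, the corepressor and marker lists and the tests were chosen with earlier results of these data known. Genes were named by a rule: Zfp712; for each comparison with controls the 5 largest called rises and falls whose stimulated libraries all lay outside the control range; for each comparison of the stimuli the 3 largest called differences each way; the 5 highest members and the 3 on each side of the level threshold; members called in opposite directions by at least 0.5 each; those with a called promoter peak; those without a finger; and genes of the corepressor list. Zfp777, Zfp800 and Zfp869, called in opposite directions by less, were named after their values were seen. Alternatives were other pseudocounts (0.5 and 8), other filters (none, a mean of at least 50), TMM scaling, edgeR and DESeq2 1.42.0 on whole reads, controls of the same time, a threshold of 0.01, a replicate block and leaving out each library.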

Additional observations from a re-analysis of the deposited data

Results flagged for a closer look

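In 3 of the 47 named members 1 of the 6 controls stood apart from the other 5 by Dixon's 95% criterion for 6 values, which chance gives in about 1 in 20 groups. Zfp706 was lowest in control 6 h library B with 2863 normalised counts, against 3014 to 3086 in the others. Zfp821 was highest in control 1 h library A with 1242, against 1014 to 1098, and Zfp853 in control 10 h library B with 61.7, against 29.0 to 34.0.

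BDNF and KCl differed from each other, as BDNF minus KCl on the log2 scale by limma, in these members, the 3 largest differences each way at each time. At 1 h, where the KCl libraries bear on the choice of the members and the values are a description, the differences were 3.11 for Zfp712, 2.88 for Zfp930, 2.41 for Zfp933, -1.07 for Zfp853, -0.88 for Zfp879 and -0.87 for Zfp784. That of Zfp879 was no longer called without BDNF 1 h library B (-0.56) and that of Zfp853 without KCl 1 h library B (-0.78). At 6 h they were 2.16 for Zfp808, 1.58 for Zfp759, 1.55 for Zfp984, -0.82 for Zfp966, -0.79 for Zfp954 and -0.71 for Zfp811. That of Zfp966, 90.0% of whose 50-base stretches occur elsewhere, was no longer called without BDNF 6 h library A (-0.92) or B (-0.72) or KCl 6 h library A (-0.64).

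At 10 h the differences were 1.49 for Zfp853, 1.09 for Zfp930, 0.99 for Zfp879, -0.68 for Zfp781, -0.58 for Zfp773 and -0.45 for Zfp963. That of Zfp781 was no longer called without BDNF 10 h library A (-0.54) or KCl 10 h library B (-0.60), and that of Zfp963 without BDNF 10 h library B (-0.30) or KCl 10 h library A (-0.38) or B (-0.51).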

How the results depend on the processing

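Counts of called members stayed within 1.5 times the reported count in 382 of 398 alternative fits, and no call of a named gene or peak changed direction. Calls of named genes were kept in 3800 fits and lost in 139. At an adjusted p below 0.01 the count fell to 42 at 1 h, 11 at 6 h and 9 at 10 h of BDNF, to 19 for BDNF against KCl at 10 h, to 19 for BDNF 6 h against 1 h and to 4 for KCl 10 h against 6 h. With controls of the same time 19 members were called at 10 h of BDNF, and DESeq2 called 15 for KCl 10 h against 6 h. Leaving out each library in turn gave 50 to 68, 10 to 32 and 9 to 31 called members at 1, 6 and 10 h of BDNF, 83 to 91, 68 to 79 and 46 to 64 with KCl, 67 to 82, 52 to 66 and 26 to 44 between the stimuli, 23 to 44 for BDNF 6 h against 1 h, 72 to 82 for KCl 6 h against 1 h and 6 to 30 for KCl 10 h against 6 h. The cause of these shifts was not tested. Shares of all genes in these alternative fits are not given here, so nothing particular to the members is read from their counts.

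Counts of called promoter peaks moved more, in 46 of 168 fits. For BDNF 1, 6 and 10 h and KCl 1, 6 and 10 h the leave-one-out ranges were 3 to 10, 1 to 7, 1 to 9, 0 to 8, 2 to 9 and 2 to 6. At 1 h of BDNF limma called 4 peaks, the mean of at least 50 left 3, controls of the same time 5 and the threshold of 0.01 left 2. At 6 h of BDNF TMM scaling gave 3, size factors 2, DESeq2 2, limma 3, the mean of at least 50 gave 1, controls of the same time 3 and the threshold 0. At 10 h of BDNF limma gave 7, controls of the same time 1 and the threshold 0. At 1 h of KCl TMM scaling gave 16, size factors 18, DESeq2 14, limma 3, the mean of at least 50 gave 10, controls of the same time 3 and the threshold 1. At 6 h of KCl TMM scaling gave 19, size factors 22, DESeq2 21, limma 12, controls of the same time 2 and the threshold 1. At 10 h of KCl TMM scaling gave 13, size factors 17, DESeq2 16 and the threshold 1. Shares of all peaks in these fits are not given here, so nothing particular to the members is read from the counts.

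With a replicate block for the column letter, 67, 29 and 29 members were called with BDNF and 91, 78 and 61 with KCl. The letters share only a name: over 36 pairs of groups the correlation of same-letter deviations ran from -0.31 to 0.42, with 13 pairs over 0.1. The block changed no count by over 1.5 times. Shares of all genes called with the block are not given here either.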
